A study of Homo sapiens with 27 samples.

Results

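The response of MCF10A cells to epidermal growth factor (EGF) alone was compared with the phosphate-buffered saline (PBS) control, across all genes. MCF10A is an established, non-tumorigenic human mammary epithelial line that depends on EGF for growth in culture. The comparison rests on 6 of the 27 RNA-seq libraries of the series, 3 with EGF and 3 with PBS, chosen by the treatment named in their labels. All cells had been grown with 20 ng/ml EGF, horse serum, hydrocortisone, cholera toxin and insulin, seeded on collagen-1 coated plates, and then held for 18 h in growth factor-free medium. They next received fresh medium of that kind with 10 ng/ml EGF or with PBS, and RNA was collected 24 h later. Libraries of 3 further groups are used for reference: T0, collected at 0 h when the ligands were added, and cells given 10 ng/ml oncostatin M (OSM, an interleukin-6-type cytokine) or 10 ng/ml transforming growth factor beta (TGFB), again for 24 h. Each group had 3 libraries of this single cell line. The labels do not say that replicates were separate cultures, so p-values measure only the spread between libraries of a group. That spread was estimated over all 27 libraries in the 9 groups of the series, which include combinations of the ligands.

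EGF binds the receptor tyrosine kinase EGFR, which signals through RAS and the kinase ERK and through PI3 kinase and AKT. ERK raises transcription of early factors and of its own feedback inhibitors, and lets cells pass from G1 into DNA synthesis through cyclin D and E2F. AKT keeps the FOXO transcription factors out of the nucleus, and mTORC1 downstream of it favours synthesis of proteins and lipids over lysosomal breakdown.

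Levels are counts per 1000000 counts (CPM), scaled between libraries by the trimmed mean of M-values. Each fold change is log2 of EGF over PBS ± an approximate standard error (SE). This SE is the absolute log2 fold change divided by the square root of the F statistic of the test below, not a fitted value. A row was called when its adjusted p was under 0.05 (edgeR's quasi-likelihood test, Benjamini-Hochberg over all 16611 rows tested). The EGF libraries held 38.1 to 46.9 M counts and the PBS libraries 35.8 to 43.1 M (1 M is 1000000). All 12 mammary epithelial markers were present, and their summed level was 20152 to 21433 CPM with EGF and 13456 to 15027 CPM with PBS. Of 8 fibroblast markers, COL3A1 was at 0 in both groups, and the sum was 54.4 to 65.8 CPM with EGF and 135 to 140 CPM with PBS, most of it from DCN, COL1A1 and FAP. Of 8 blood and endothelial markers, 2 were at 0 with EGF, CD3E among them, and 1 was at 0 with PBS. Their sum was 26.97 to 30.5 CPM with EGF and 56.8 to 64.8 CPM with PBS, most of it from CD14 and CD68. Their part in the results was not tested. In a bulk sample, fewer cells of a type and less RNA per cell cannot be told apart.

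EGF changed most of the transcriptome. Of the 16611 rows, 11762 were called, which is 70.8%, with 5609 higher (33.8%) and 6153 lower (37%). Called rows with more than a 2-fold change numbered 1913 higher (11.5%) and 2573 lower (15.5%). The upper end was longer on the rising side: 362 called rows rose and 316 fell by more than 8-fold, and 165 rose and 112 fell by more than 16-fold. The median log2 fold change over all rows was -0.07, with quartiles at -0.68 and 0.51. The 3 EGF and 3 PBS libraries did not overlap for 12258 rows (73.8%). Since so large a share of all rows was called, the counts below are read against these percentages, and a list near them is no result about its members.

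**Figure D1:**
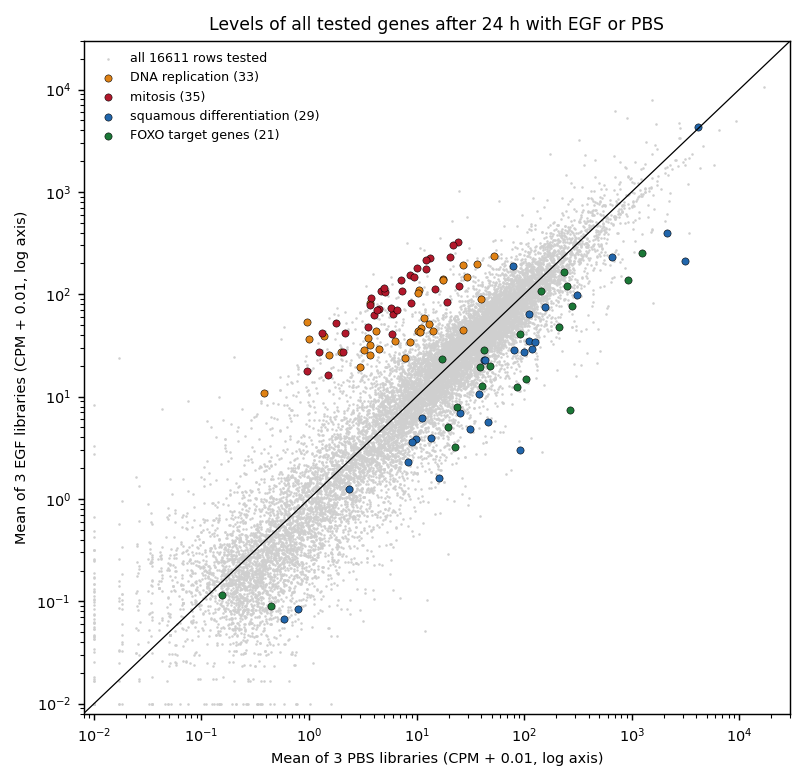
Mean level of each of the 16611 rows tested in the 3 EGF libraries (vertical) against the 3 PBS libraries (horizontal), both as CPM plus 0.01 on log axes, with the line of equal levels. The DNA replication genes (orange) and mitosis genes (red) all lie above the line, and most squamous differentiation genes (blue) and FOXO-responsive genes (green) lie below it.

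The T0 libraries show where both groups stood relative to the starting level. Of the 1913 rows that rose more than 2-fold with EGF, the T0 mean lay between the PBS and EGF means for 1713, above the EGF mean for 35 and below the PBS mean for 165. Of the 2573 rows that fell more than 2-fold, the T0 mean lay between for 1957, below the EGF mean for 29 and above the PBS mean for 587. No test was made of these positions.

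The 15 strongest rises, among genes with at least 10 CPM in the higher group, mixed genome duplication genes with secreted and surface proteins. TFPI2 (chr7:93885396-93890753, GRCh38), a secreted Kunitz-type protease inhibitor, measured 23.96, 23.2 and 26.8 CPM in the EGF libraries against 0.1498, 0.108 and 0.318 CPM in the PBS libraries (log2 fold change 7.004 ± 0.31, edgeR adjusted p = 6.28e-15). COL6A3, a chain of collagen VI, measured 49.5, 44.4 and 49.8 CPM in the EGF libraries against 0.674, 0.452 and 0.587 CPM in the PBS libraries (log2 fold change 6.39 ± 0.28). Both genes were close to absent with PBS and the groups were far apart. ZBED2, a zinc finger factor, rose by 6.07, AMIGO2, a cell adhesion protein, by 5.25, and RPSAP52, a ribosomal protein pseudogene whose reads can be shared with related copies, by 6.19. The other 10 were MCM10, RRM2, PKMYT1, CDC45, DTL, EXO1 and AURKB, which act in replication, repair or mitosis, and MYBL2, FAM111B and THBS1.

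The 15 strongest falls, under the same level rule, were led by genes close to absent with EGF. MAP7D2, a microtubule-binding protein, measured 0.0892, 0.0400 and 0.147 CPM in the EGF libraries against 14.6, 10.7 and 11.96 CPM in the PBS libraries (log2 fold change -7.08 ± 0.50, edgeR adjusted p = 1.45e-11). SEMA6D, a membrane semaphorin, measured 0.379, 0.3596 and 0.0978 CPM in the EGF libraries against 22.9, 18.1 and 17.7 CPM in the PBS libraries (log2 fold change -6.09 ± 0.33). MMP7, an epithelial matrix metalloprotease, measured 0.5796, 0.639 and 0.807 CPM in the EGF libraries against 33.6, 43.5 and 40.7 CPM in the PBS libraries (log2 fold change -5.86 ± 0.33). In these 3 genes no EGF library exceeded 1 CPM and no PBS library was below 10 CPM. KDR, the VEGF receptor 2, fell with a log2 fold change of -5.105, ATOH8, a bHLH factor, with -4.93, BEST2, a chloride channel, with -4.57, and GNAO1, a G protein alpha subunit, with -4.57. UGT1A7 was also in this group at -4.55, but it shares exons with the other UGT1A genes and its estimate is uncertain. The remaining strong falls were ETNK2, GREB1 and GPX2, and FBXO32, KRT1, BMF and GPNMB, which are described with their programmes below.

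In absolute terms the largest gains of counts were in cytoskeletal and adhesion genes. ACTB, cytoplasmic beta-actin, measured 7764, 8096 and 7776 CPM in the EGF libraries against 1495, 1526 and 1609 CPM in the PBS libraries (log2 fold change 2.35 ± 0.08, edgeR adjusted p = 3.75e-17). S100A2, an epithelial calcium-binding protein, measured 5266, 5294 and 5104 CPM in the EGF libraries against 941, 889.7 and 903 CPM in the PBS libraries (log2 fold change 2.52 ± 0.08). TUBA1B, an alpha-tubulin, measured 2215, 2349 and 2515 CPM in the EGF libraries against 173, 165 and 187 CPM in the PBS libraries (log2 fold change 3.75 ± 0.15). The EGF libraries were above all PBS libraries in each. ACTG1, MT2A, KRT81, FLNA, HSPA8 and TUBB were also among the 10 largest gains, and EEF1A1, MT-CO1, FTH1, GLUL, KRT10, DSP, KRT5, PERP, EEF2 and KRT16 were the 10 largest losses. FTH1, the ferritin heavy chain, fell from 5897 ± 353 to 1815 ± 136 CPM (SD, n = 3). EEF1A1, the translation elongation factor, fell from 16871 ± 773 to 10479 ± 693 CPM. Actin, tubulin, FTH1, EEF1A1 and ribosomal protein genes have near-identical copies in the genome, TUBB has 8 rows for alternate loci, and their levels are uncertain as far as reads were split among copies.

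Feedback inhibitors of the ERK pathway rose, with 13 of 15 members called higher and 2 lower, and a median log2 fold change of 1.62 against -0.07 for all rows. DUSP6 (chr12:89347235-89352501, GRCh38), the cytoplasmic phosphatase of ERK, measured 102, 89.2 and 96.6 CPM in the EGF libraries against 5.82, 5.102 and 5.26 CPM in the PBS libraries (log2 fold change 4.16 ± 0.20, edgeR adjusted p = 1.24e-13). SPRY4, a Sprouty protein that blocks receptor signalling to RAS, measured 74.7, 67.9 and 75.2 CPM in the EGF libraries against 5.19, 5.12 and 4.28 CPM in the PBS libraries (log2 fold change 3.897 ± 0.20). Both genes were also low at T0, at 4.92 ± 2.04 CPM for DUSP6 and 3.71 ± 0.915 CPM for SPRY4. DUSP4, a nuclear ERK phosphatase, rose by 2.09, DUSP5 by 1.66, and the Sprouty-related SPRED1 and SPRED2 by 1.67 and 1.72. The members that fell were ERRFI1, an inhibitor of the EGFR kinase itself that is also induced by glucocorticoids, at -1.31, and NF1, a RAS GTPase activator, at -0.31.

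Transcription factors of the early response moved in both directions at 24 h, with 12 of 24 higher and 11 lower. The PEA3-group ETS factors led the rises. ETV5 measured 43.2, 45.2 and 49.03 CPM in the EGF libraries against 2.77, 2.91 and 2.397 CPM in the PBS libraries (log2 fold change 4.08 ± 0.19). ETV4 rose by 3.67, the AP-1 subunit FOSL1 by 3.34, ETS1 by 2.19 and EGR1 by 1.87. FOS itself was lower (-0.71), as were JUNB (-0.901), FOSB (-1.27), EGR3 (-1.45) and FOSL2 (-2.19), and JUN was not called (log2 fold change 0.13 ± 0.13). MYC, a driver of growth, was higher by 0.46. ELF3 and EHF, epithelial ETS factors tied to differentiation, were the strongest falls of this list: ELF3 measured 28.1, 34.1 and 20.6 CPM in the EGF libraries against 209, 261 and 207 CPM in the PBS libraries (log2 fold change -3.03 ± 0.36), and EHF fell with -2.77.

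Ligands and receptors of the EGF family split by member, with 7 of 19 higher (36.8%) and 8 lower (42.1%). These shares were near the 33.8% and 37% of all rows. AREG, amphiregulin, an EGFR ligand made by mammary epithelium, measured 302, 251 and 288 CPM in the EGF libraries against 12.01, 10.9 and 9.37 CPM in the PBS libraries (log2 fold change 4.704 ± 0.26, edgeR adjusted p = 1.795e-12). Every EGF library was over 10 times the highest PBS library. NRG1, neuregulin 1, a ligand of ERBB3, measured 6.55, 6.67 and 6.65 CPM in the EGF libraries against 0.974, 0.431 and 0.514 CPM in the PBS libraries (log2 fold change 3.38 ± 0.23). EREG rose by 1.74, TGFA by 0.7001 and HBEGF by 0.58, while EPGN fell with -0.66. The receptor EGFR measured 483, 542 and 542 CPM in the EGF libraries against 398, 373 and 408 CPM in the PBS libraries (log2 fold change 0.41 ± 0.05), a small rise without overlap. ERBB3 fell from 139 ± 5.88 to 30.3 ± 4.64 CPM (log2 fold change -2.202 ± 0.15) and ERBB2 with -0.69, and ERBB4 was under the filter on low counts. The sheddases ADAM10 and ADAM17 fell with -0.64 and -0.39.

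**Figure D2:**
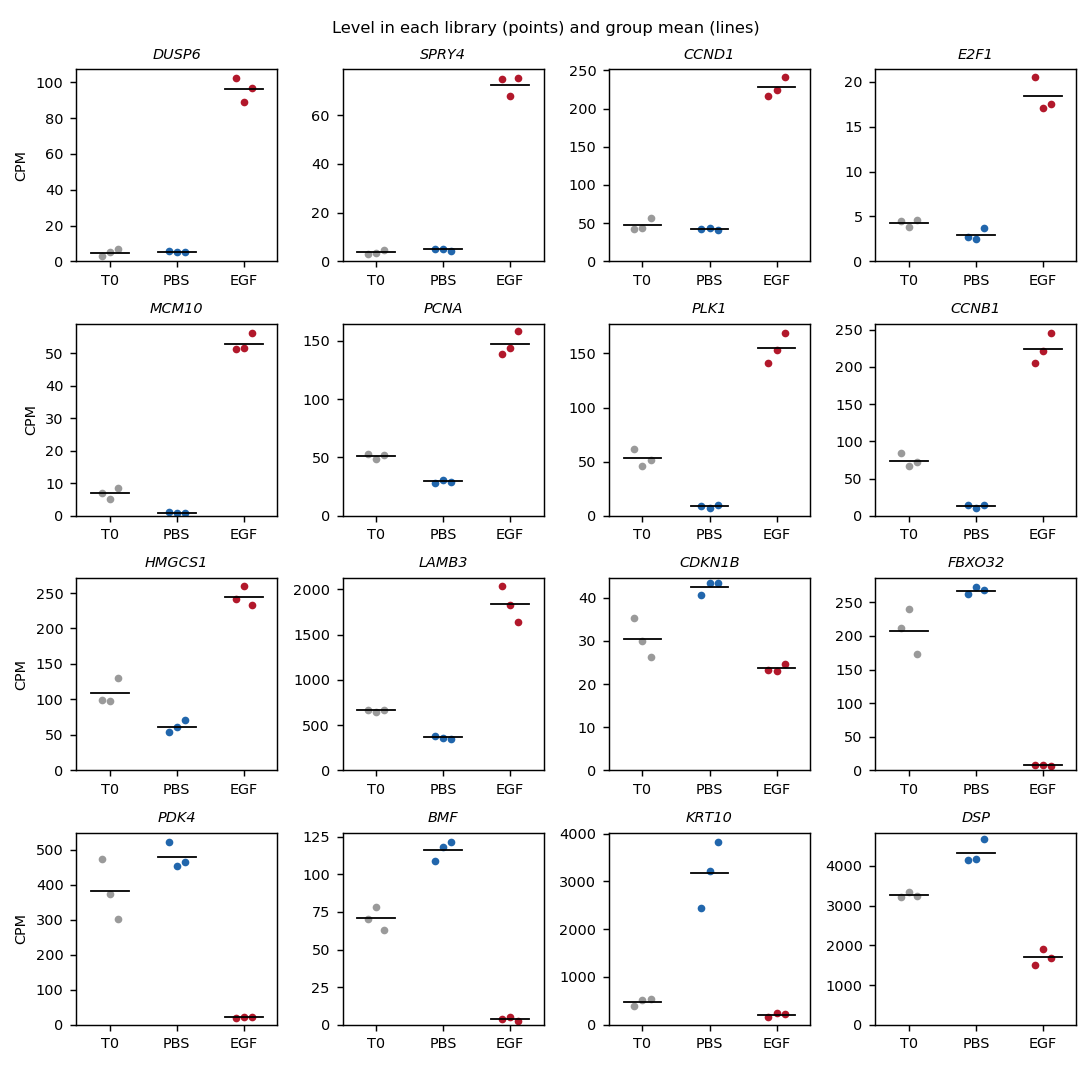
CPM (vertical, linear axes from 0) of 16 genes in each T0, PBS and EGF library, with group means as lines. Feedback, G1, replication and mitosis genes, HMGCS1 and LAMB3 are highest with EGF, CDKN1B, FBXO32, PDK4, BMF, KRT10 and DSP are lowest with EGF, and EGF and PBS libraries do not overlap for any of the 16.

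All 17 tested members of a list of G1 cyclins, their kinases, E2F factors and linked regulators rose, with a median of 1.90. MYBL2 had the largest rise of the list, 5.35. CCND1, cyclin D1, the partner of CDK4 and CDK6, measured 217, 225 and 241 CPM in the EGF libraries against 41.8, 43.3 and 40.6 CPM in the PBS libraries (log2 fold change 2.44 ± 0.14, edgeR adjusted p = 6.82e-13). CCNE2, cyclin E2, measured 17.6, 18.5 and 20.9 CPM in the EGF libraries against 1.17, 1.01 and 1.05 CPM in the PBS libraries (log2 fold change 4.14 ± 0.21). E2F1 measured 20.5, 17.1 and 17.5 CPM in the EGF libraries against 2.72, 2.52 and 3.67 CPM in the PBS libraries (log2 fold change 2.63 ± 0.18). Groups did not overlap for any of the 17. CDC25A, the phosphatase that activates CDK2, rose by 3.48 and the atypical repressor E2F7 by 4.23. The brakes moved less evenly, with 8 of 15 lower (53.3%) and 5 higher (33.3%). Of all rows, 37% were lower and 33.8% higher, so the higher share was near that of all rows. CDKN1B, p27, measured 23.3, 23.1 and 24.6 CPM in the EGF libraries against 40.7, 43.5 and 43.4 CPM in the PBS libraries (log2 fold change -0.85 ± 0.10). CDKN1A, p21, fell with -1.05, CDKN1C, p57, with -3.202, and the antiproliferative BTG1 with -2.66. RBL1, the pocket protein p107 and itself an E2F target, rose by 2.38, and RB1, CDKN2C, E2F5 and E2F4 by 0.78 to 1.00. CDKN2A and CDKN2B were at 0 counts in both groups.

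DNA replication genes rose without exception: 33 of 33 were called higher, 32 of them more than 2-fold, with a median of 2.78. An E2F motif close to the start site is shown for GINS2 and CDT1, the members with the strongest rises that hold TTTCCCGC or TTTGGCGC on either strand within 120 bases before the RefSeq start (GRCh38.p14), with the motif in capitals. GINS2 lies at chr16:85688955-85689074, minus strand, and CDT1 at chr16:88803669-88803788, plus strand.
GINS2: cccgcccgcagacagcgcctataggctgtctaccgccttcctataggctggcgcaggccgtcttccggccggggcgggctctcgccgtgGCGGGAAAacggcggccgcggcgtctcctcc
CDT1: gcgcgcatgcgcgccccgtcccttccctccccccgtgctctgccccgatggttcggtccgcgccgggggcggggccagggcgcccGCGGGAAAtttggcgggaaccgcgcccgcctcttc

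GINS2 is a subunit of the GINS complex, part of the replicative helicase, and measured 35.9, 38.6 and 42.3 CPM in the EGF libraries against 1.55, 1.08 and 1.44 CPM in the PBS libraries (log2 fold change 4.85 ± 0.22, edgeR adjusted p = 1.55e-14). CDT1, which loads the helicase onto origins, measured 42.6, 40.6 and 47.9 CPM in the EGF libraries against 4.92, 4.35 and 3.25 CPM in the PBS libraries (log2 fold change 3.39 ± 0.18). The motif begins 31 bases before the start in GINS2 and 35 bases before it in CDT1, as its reverse complement in both. MCM10, which activates the loaded helicase, measured 51.2, 51.5 and 56.3 CPM in the EGF libraries against 1.07, 0.926 and 0.856 CPM in the PBS libraries (log2 fold change 5.797 ± 0.31), the largest change of the list. CDC45 rose by 5.22, the polymerase epsilon subunit POLE2 by 4.86 and CDC6 by 4.48. The 6 subunits of the helicase core rose by 2.15 (MCM4) to 3.395 (MCM5), and the sliding clamp PCNA measured 139, 144 and 158 CPM in the EGF libraries against 28.4, 30.6 and 29.2 CPM in the PBS libraries (log2 fold change 2.32 ± 0.12). ORC2, a subunit of the origin recognition complex, had the smallest rise, 0.72.

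Nucleotide synthesis rose with it, with 23 of 25 members higher and a median of 1.08. The deoxynucleotide arm led: RRM2, the regulated subunit of ribonucleotide reductase, measured 289, 301 and 352 CPM in the EGF libraries against 9.39, 6.22 and 9.05 CPM in the PBS libraries (log2 fold change 5.26 ± 0.25, edgeR adjusted p = 1.77e-13). Thymidine kinase TK1 rose by 4.24 and thymidylate synthase TYMS by 3.55. Purine and pyrimidine genes such as CTPS1, PFAS and CAD rose by 1.34 to 1.99. IMPDH2 fell with -0.48 while its paralogue IMPDH1 rose by 1.61.

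Mitosis genes gave the largest shift of any list. All 35 rose more than 2-fold, with a median of 3.96 and a range of 2.12 to 4.99. The promoters of KIF23, ASPM and PLK1, the members with the strongest rises that hold both elements, are shown for the pair of motifs typical of late cell cycle genes. Capitals mark CCAAT and the cell cycle genes homology region (CHR, TTTGAA or TTCGAA), each on either strand, within 120 bases before the start. KIF23 lies at chr15:69414229-69414348, plus strand, ASPM at chr1:197146670-197146789, minus strand, and PLK1 at chr16:23678769-23678888, plus strand.
KIF23: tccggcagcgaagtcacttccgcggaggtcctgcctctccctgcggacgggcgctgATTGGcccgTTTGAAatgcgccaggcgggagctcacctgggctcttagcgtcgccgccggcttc
ASPM: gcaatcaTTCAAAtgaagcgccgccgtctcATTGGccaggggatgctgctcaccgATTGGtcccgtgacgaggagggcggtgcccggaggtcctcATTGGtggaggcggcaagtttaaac
PLK1: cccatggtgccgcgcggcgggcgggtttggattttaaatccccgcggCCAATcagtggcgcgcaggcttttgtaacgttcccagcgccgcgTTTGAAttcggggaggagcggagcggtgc

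PLK1, Polo-like kinase 1, measured 142, 153 and 169 CPM in the EGF libraries against 8.72, 7.23 and 9.93 CPM in the PBS libraries (log2 fold change 4.17 ± 0.21, edgeR adjusted p = 3.77e-13). KIF23, a kinesin of the central spindle, measured 103, 102 and 112 CPM in the EGF libraries against 4.84, 4.11 and 6.14 CPM in the PBS libraries (log2 fold change 4.40 ± 0.21). ASPM, a spindle pole protein, measured 184, 164 and 191 CPM in the EGF libraries against 12.04, 7.28 and 10.7 CPM in the PBS libraries (log2 fold change 4.17 ± 0.23). In PLK1 the CCAAT letters begin 73 bases and the CHR letters 29 bases before the start, and in KIF23 64 and 55 bases before it. The order differs in ASPM, with the CHR letters at 113 bases and CCAAT at 90, 65 and 25 bases before the start. AURKB, the chromosomal passenger kinase, rose by 4.99, NUSAP1 by 4.895, the checkpoint kinase BUB1 by 4.62 and survivin, BIRC5, by 4.56. CCNB1, cyclin B1, measured 205, 222 and 246 CPM in the EGF libraries against 13.9, 11.1 and 14.8 CPM in the PBS libraries (log2 fold change 4.08 ± 0.23). The T0 mean of all 35 members lay between PBS and EGF: CCNB1 was at 74.1 ± 9.33 CPM at T0. These genes took 0.401, 0.398 and 0.446% of all counts in the EGF libraries and 0.0339, 0.0265 and 0.0346% in the PBS libraries.

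Genes of homologous recombination and the Fanconi anaemia pathway rose in 25 of 28 cases, with a median of 2.89. EXO1, a resection nuclease, measured 57.1, 61.7 and 69.999 CPM in the EGF libraries against 2.27, 1.68 and 1.64 CPM in the PBS libraries (log2 fold change 5.08 ± 0.24). The helicase BLM rose by 4.75, RAD51AP1 by 4.33, BRCA2 by 3.897 and BRCA1 by 3.76. FANCE was the only member called lower, at -0.93, and FANCF and RAD51B were not called.

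Programmes of protein production moved apart. Ribosome biogenesis factors rose in 29 of 30 cases, with a median of 1.05. NOP56, a core protein of box C/D snoRNPs, measured 242, 239 and 254 CPM in the EGF libraries against 89.7, 89.4 and 87.7 CPM in the PBS libraries (log2 fold change 1.46 ± 0.09, edgeR adjusted p = 1.06e-12). UTP20 rose by 1.42, RRP9 by 1.296 and NOP58 by 1.27. The cytoplasmic ribosomal proteins themselves went the other way by small amounts, with 41 of 47 lower, a median of -0.32 and none past 2-fold. RPLP0, a stalk protein, measured 1729, 1882 and 1817 CPM in the EGF libraries against 2563, 2825 and 2641 CPM in the PBS libraries (log2 fold change -0.56 ± 0.05). RPL35 was the only member called higher (0.16). The whole list took 4.04, 4.21 and 4.11% of counts in the EGF libraries and 5.14, 5.37 and 5.12% in the PBS libraries, without overlap (exact two-sided permutation p = 0.10, the smallest possible at 3 against 3).

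Cytoplasmic aminoacyl-tRNA synthetases, which charge tRNAs, rose in 16 of 20 cases (median 0.64), led by FARSB at 1.25, GARS1 at 1.07, MARS1 at 1.07 and IARS1 at 1.03. QARS1 and SARS1 fell with -0.61 and -0.26. Chaperones rose in 20 of 25 cases (median 0.88). HSP90AA1, the inducible cytosolic HSP90, measured 2101, 2222 and 2457 CPM in the EGF libraries against 685, 704 and 677 CPM in the PBS libraries (log2 fold change 1.71 ± 0.08, edgeR adjusted p = 1.07e-14). Chaperonin subunits CCT5 and CCT2 rose by 1.203 and 1.18, and HSPA8, the constitutive HSC70, by 1.17. The 4 called lower were DNAJB9, DNAJB1 and HERPUD1, at -0.78 to -0.36, and HSPA1B at -0.29, which was not called without EGF replicate 1 (edgeR adjusted p = 0.058) and is nearly identical to HSPA1A. Amino acid and stress genes regulated by ATF4 split, with 8 of 20 higher (40%) and 9 lower (45%), near the 33.8% and 37% of all rows. PHGDH, the first enzyme of serine synthesis, rose by 2.28 and the pseudokinase TRIB3 by 1.98, and NUPR1 and DDIT3, stress factors, fell with -2.19 and -1.55.

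Sterol synthesis and uptake rose, with 21 of 24 members higher and a median of 0.94. HMGCS1, which makes HMG-CoA, measured 242, 260.5 and 232 CPM in the EGF libraries against 53.96, 60.7 and 70.2 CPM in the PBS libraries (log2 fold change 1.99 ± 0.17, edgeR adjusted p = 1.79e-09). ACAT2 rose by 1.99 and INSIG1, the sterol-dependent retention factor, by 1.91. TM7SF2, a sterol C14 reductase, fell with -1.57, and the regulator SREBF2 was not called (log2 fold change -0.06 ± 0.06). In fatty acid synthesis the desaturases rose, FADS2 by 2.01, FADS1 by 1.78 and SCD by 1.41, and so did ACLY, by 1.15, and ELOVL6, by 1.06. Fatty acid synthase FASN was not called (log2 fold change -0.07 ± 0.08), and in all 6 of 13 members rose and ELOVL5 fell.

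Fatty acid oxidation went down, with 14 of 22 members lower, 3 higher and a median of -0.77. PDK4, the kinase that shuts pyruvate dehydrogenase during fasting, measured 19.6, 23.1 and 20.9 CPM in the EGF libraries against 523, 454 and 464 CPM in the PBS libraries (log2 fold change -4.501 ± 0.20, edgeR adjusted p = 4.14e-14). PPARGC1A, the coactivator PGC-1 alpha, measured 0.914, 1.12 and 0.929 CPM in the EGF libraries against 20.2, 18.6 and 18.5 CPM in the PBS libraries (log2 fold change -4.27 ± 0.22). PPARA fell with -1.85 and HADHB, of the mitochondrial trifunctional protein, with -1.69. ECI2 and HADH rose by 0.37 and 0.201, and ETFA by 0.18, a call lost without EGF replicate 3 or PBS replicate 1 (edgeR adjusted p = 0.12 and 0.11).

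Glycolytic and hypoxia-responsive genes, taken as 1 list, rose in 19 of 27 cases, a larger share than the 33.8% of all rows, with a median of 0.51. LDHA rose by 1.17, PFKP by 1.17, ENO1 by 0.798, HK2 by 0.702 and the neuronal enolase ENO2 by 2.33. The glucose transporter SLC2A1 went against them, at 83.9, 92.97 and 90.1 CPM in the EGF libraries against 231, 228 and 254 CPM in the PBS libraries (log2 fold change -1.42 ± 0.06). ADM, HK1, NDRG1, ALDOC and PFKM also fell. CA9 had a log2 fold change of 3.63 but stayed under 1 CPM in both groups. Transcripts of the respiratory chain were lower. All 13 mitochondrially encoded subunits fell (median -0.75), and 27 of 40 nuclear-encoded subunits fell and 3 rose (median -0.32). MT-ND1 had the largest fall of the mitochondrial set, -1.104, and NDUFB5 of the nuclear set, -1.13. NDUFS8, a complex I subunit, rose by 0.59. The mitochondrial genes took 2.096, 1.59 and 1.599% of counts with EGF and 3.05, 2.85 and 3.06% with PBS (exact permutation p = 0.10), with EGF replicate 1 above the other EGF libraries.

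**Figure D3:**
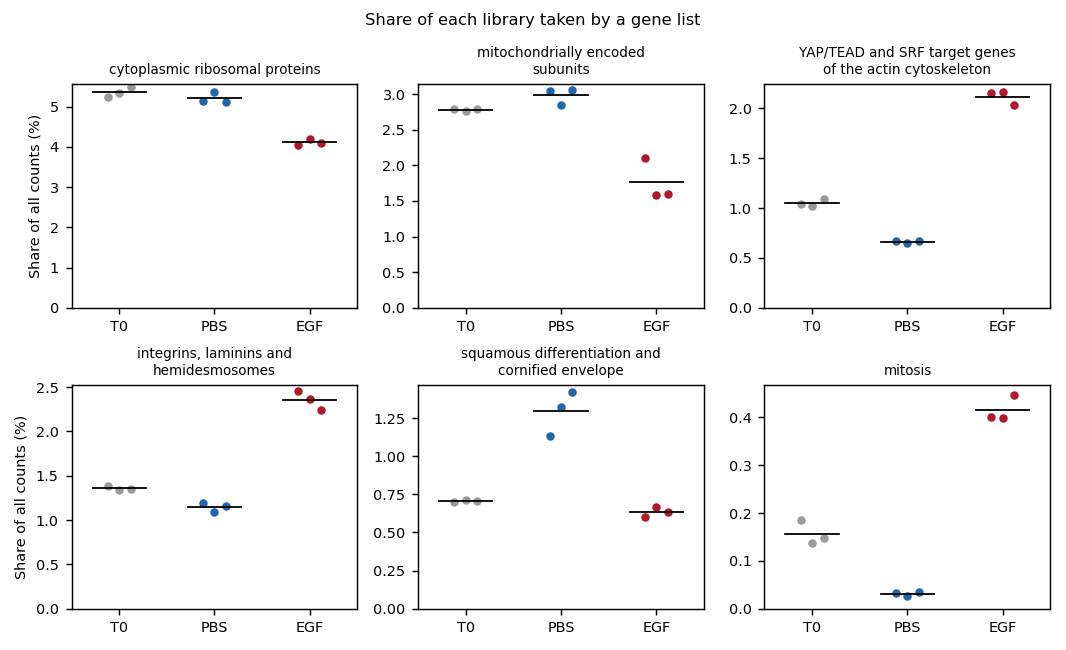
Share of all counts (vertical, percent, axes from 0) taken by 6 gene lists in each T0, PBS and EGF library, with group means as lines. The ribosomal protein, mitochondrial and squamous shares are lower with EGF than with PBS, and the actin cytoskeleton, integrin and laminin, and mitosis shares are higher, with no overlap between EGF and PBS libraries in any panel.

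FOXO factors and FOXO-responsive genes fell, with 19 of 21 lower, 1 higher and a median of -1.68. FBXO32, the ubiquitin ligase atrogin-1, measured 7.38, 8.29 and 6.33 CPM in the EGF libraries against 262, 273 and 268 CPM in the PBS libraries (log2 fold change -5.18 ± 0.33, edgeR adjusted p = 2.13e-11). BCL6, a transcriptional repressor, measured 14.8, 15.9 and 13.4 CPM in the EGF libraries against 102, 108 and 106 CPM in the PBS libraries (log2 fold change -2.84 ± 0.13). PIK3IP1, an inhibitor of PI3 kinase, fell with -2.797, KLHL24 with -2.79, SOD2, also a target of inflammatory signalling, with -2.76, and TXNIP, which limits glucose uptake, with -2.32. The factors themselves were lower, FOXO1 at -2.13, FOXO3 at -1.85 and FOXO4 at -1.57, and so were the receptors INSR and IGF1R, at -1.003 and -0.42. IRS1, an adaptor of the insulin receptor, was the only member that rose (0.41). FBXO32 was at 208 ± 33.8 CPM at T0.

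Lysosomal enzymes and membrane proteins fell in 24 of 31 cases (median -0.62) and autophagy genes in 17 of 26 (median -0.48). The CLEAR motif TCACGTGA, the palindromic site of the TFEB family of lysosomal regulators, is shown in capitals for GAA and CTSA, the members with the strongest falls that hold it within 120 bases before the RefSeq start (GRCh38.p14). GAA lies at chr17:80101461-80101580, plus strand, and CTSA at chr20:45891215-45891334, plus strand.
GAA: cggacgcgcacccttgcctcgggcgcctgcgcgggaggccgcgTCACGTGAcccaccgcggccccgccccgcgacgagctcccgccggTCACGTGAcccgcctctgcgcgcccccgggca
CTSA: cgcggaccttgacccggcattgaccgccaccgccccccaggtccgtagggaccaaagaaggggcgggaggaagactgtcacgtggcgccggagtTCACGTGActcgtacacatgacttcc

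GAA, acid alpha-glucosidase, measured 26.1, 26.5 and 24.3 CPM in the EGF libraries against 106, 108 and 102 CPM in the PBS libraries (log2 fold change -2.03 ± 0.10, edgeR adjusted p = 2.902e-14). CTSA, cathepsin A, measured 63.2, 69.3 and 64.7 CPM in the EGF libraries against 130.3, 141 and 131 CPM in the PBS libraries (log2 fold change -1.03 ± 0.07). In GAA the motif occurs at both 77 and 32 bases before the start. GPNMB, a lysosomal membrane glycoprotein, had the largest fall of the list, at 3.81, 4.21 and 3.06 CPM in the EGF libraries against 94.8, 94.5 and 79.5 CPM in the PBS libraries (log2 fold change -4.59 ± 0.25). CTSS and CTSF fell with -2.32 and -2.25, and CTSD, the aspartic protease cathepsin D, with -1.69. GLA, CTSZ and CTSL rose, by 0.31 to 1.15. In autophagy, the initiating kinase ULK1 measured 30.99, 30.2 and 26.1 CPM in the EGF libraries against 107, 114 and 113 CPM in the PBS libraries (log2 fold change -1.94 ± 0.16). GABARAPL1, an ATG8 homologue, fell with -1.93, WIPI1 with -1.67, SQSTM1, the cargo receptor p62, with -1.57, and the regulator TFEB with -1.05. ATG4C, ATG16L1 and ATG5 were the strongest of the 5 that rose, by 0.36 to 0.55.

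Antioxidant and xenobiotic detoxification genes fell in 23 of 29 cases, with a median of -1.13. ALDH3A1, an aldehyde dehydrogenase of surface epithelia, measured 60.3, 62.6 and 70.6 CPM in the EGF libraries against 518, 517 and 699 CPM in the PBS libraries (log2 fold change -3.16 ± 0.20, edgeR adjusted p = 1.103e-11). The aldo-keto reductases AKR1C1, AKR1C2 and AKR1C3, which are closely similar to each other, fell with -3.22, -2.47 and -2.38, and CYP4B1, UGT1A6 and the glutathione peroxidase GPX2 with -3.62, -3.22 and -5.28. HMOX1, heme oxygenase 1, fell with -2.52. The regulators NFE2L2 (NRF2) and AHR fell with -1.04 and -1.17. TXN, GCLM and SRXN1 were called higher, by 0.66, 0.58 and 0.2997.

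Squamous differentiation genes had the lowest median of all lists, -1.79, with 25 of 29 lower and 1 higher. KRT10, a suprabasal keratin, measured 161, 254 and 222 CPM in the EGF libraries against 2449, 3213 and 3833 CPM in the PBS libraries (log2 fold change -3.897 ± 0.28, edgeR adjusted p = 1.28e-10). KRT1, its partner, measured 1.74, 3.74 and 3.59 CPM in the EGF libraries against 80.9, 85.2 and 110.3 CPM in the PBS libraries (log2 fold change -4.93 ± 0.41). Both were low at T0, at 484 ± 72.7 CPM for KRT10 and 4.78 ± 0.879 CPM for KRT1, so that the EGF libraries were nearer to T0 than the PBS libraries were. RPTN, FLG (filaggrin) and the desmosomal cadherin DSC1 fell with -3.36, -3.33 and -3.22, the stress keratin KRT16 with -2.44, and IVL, involucrin, with -0.803. KRT6B rose by 1.26, its paralogue KRT6A was not called (log2 fold change 0.06 ± 0.06), and loricrin was under the filter on low counts. The list took 0.601, 0.6696 and 0.635% of counts with EGF and 1.13, 1.32 and 1.42% with PBS, against 0.702, 0.716 and 0.704% at T0.

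Keratins and lineage factors of basal and luminal cells fell in 12 of 17 cases (median -0.67). GREB1, an oestrogen-responsive gene, fell with -5.28, KRT15, a basal keratin of quiescent epithelium, with -4.25, and KRT19 with -3.58. KRT5 and TP63, which mark basal cells, fell with -0.67 and -0.395, and KRT14 was not called (log2 fold change 0.16 ± 0.10) except without PBS replicate 3 (edgeR adjusted p = 0.029). KRT18 rose by 1.23 while its partner KRT8 fell with -0.84, and FOXA1 and KRT7 rose by 0.67 and 0.59. Cell junction genes fell in 18 of 29 cases and rose in 7 (median -0.69). DSP, desmoplakin, measured 1512, 1904 and 1670.0 CPM in the EGF libraries against 4143, 4177 and 4677 CPM in the PBS libraries (log2 fold change -1.35 ± 0.09, edgeR adjusted p = 1.18e-12). CLDN8, TJP3 and PKP1 fell with -3.11, -2.98 and -2.13, and CDH1, E-cadherin, with -0.52. Rises were seen for the connexins GJB2 and GJB5, the plakophilins PKP2 and PKP3, and the catenins CTNNB1 and CTNNA1, by 0.19 to 0.98.

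LAMB3 and LAMA3, laminin chains that anchor epithelial cells to the basement membrane, rose together. LAMB3 (chr1:209614870-209652425, GRCh38) measured 2038, 1829.8 and 1638 CPM in the EGF libraries against 380.1, 357 and 350.4 CPM in the PBS libraries (log2 fold change 2.34 ± 0.10, edgeR adjusted p = 2.25e-15). LAMA3 measured 2119.9, 2079 and 1908 CPM in the EGF libraries against 489, 426 and 453 CPM in the PBS libraries (log2 fold change 2.16 ± 0.09). Both genes were at least 4-fold higher in the means, without overlap. The receptor chains ITGA3, ITGA6 and ITGB4 rose by 1.93, 1.61 and 0.47, the collagen receptor ITGA2 by 1.62 and ITGB3 by 2.58. Of the whole list of integrins, laminins and hemidesmosome genes, 17 of 25 rose and 7 fell. The falls were NID1, nidogen, at -5.84, the laminin chains LAMB2, LAMB1, LAMA5 and LAMC1, and ITGB8 and DST. The list took 2.45, 2.36 and 2.24% of counts with EGF and 1.196, 1.09 and 1.16% with PBS.

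Matrix and matricellular genes rose in 17 of 27 cases and fell in 9 (median 1.47). CCN2, connective tissue growth factor and a YAP target, measured 35.7, 31.2 and 29.2 CPM in the EGF libraries against 1.998, 1.55 and 2.27 CPM in the PBS libraries (log2 fold change 4.05 ± 0.14). TNC, tenascin C, measured 169, 174 and 109 CPM in the EGF libraries against 14.8, 10.9 and 11.9 CPM in the PBS libraries (log2 fold change 3.59 ± 0.18). FN1, fibronectin, rose by 2.296, the collagen IV chains COL4A1 and COL4A2 by 2.699 and 2.64, and THBS1, thrombospondin 1, by 5.36. LOX, lysyl oxidase, went the other way (-4.24), as did COL6A1 (-2.81), COL7A1 (-1.02) and COL1A1 (-0.86). COL6A1 thus fell while COL6A3, another collagen VI chain, rose.

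Matrix proteases and the plasminogen activator system split, with 10 of 24 higher and 14 lower. PLAU, urokinase, rose by 1.46, the tissue plasminogen activator PLAT by 0.98, the urokinase receptor PLAUR by 0.39 and the inhibitor SERPINE2 by 4.299, while SERPINB2, plasminogen activator inhibitor 2, fell with -1.16. The interstitial collagenase MMP1 had 0 counts in the 3 PBS libraries and 3.81, 2.64 and 3.35 CPM in the EGF libraries, at least 139-fold higher when PBS is set at a floor of 3 counts over the group. MMP10, stromelysin 2, measured 11.01, 8.65 and 7.503 CPM in the EGF libraries against 0.1249, 0.0215 and 0.0489 CPM in the PBS libraries (log2 fold change 7.099 ± 0.59). MMP9 rose by 1.97. The 6 kallikreins of the list, KLK5, KLK6, KLK7, KLK8, KLK10 and KLK11, all fell, at -0.76 for KLK10 to -1.96 for KLK11. MMP7, MMP28, MMP2, MMP14, TIMP3 and TIMP2 also fell.

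Motility and EMT genes rose in 19 of 26 cases (median 0.93) and fell in 4. CDH2, N-cadherin, rose by 2.31, the actin bundler FSCN1 by 2.08, TUBB6 by 2.01, and vimentin, VIM, by 1.28. ZEB1, a factor of epithelial to mesenchymal transition, rose by 1.06, while ZEB2 and TWIST1 fell with -1.92 and -1.52, and SNAI2 was not called (log2 fold change 0.005 ± 0.06). Target genes of YAP/TEAD and SRF rose in 22 of 27 cases (median 0.98). TAGLN, transgelin, measured 197, 215 and 158 CPM in the EGF libraries against 24.3, 20.6 and 20.5 CPM in the PBS libraries (log2 fold change 3.12 ± 0.20, edgeR adjusted p = 2.13e-11). FLNA, filamin A, measured 2272, 2394 and 2228 CPM in the EGF libraries against 388, 336 and 390.1 CPM in the PBS libraries (log2 fold change 2.63 ± 0.08). CCN1 rose by 3.05, myosin light chain MYL9 by 2.29 and TPM4 by 1.94. LATS2, a Hippo kinase, was the only member called lower (-0.28), and ACTA2, TPM1 and CALD1 were not called. These genes took 2.16, 2.16 and 2.03% of counts with EGF and 0.673, 0.647 and 0.671% with PBS.

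Chemokines, interleukins and growth factors rose in 21 of 31 cases and fell in 6, but 10 of the 31 stayed under 1 CPM in both groups. Among the 21 others, 16 rose and 5 fell, with a median of 1.02. CXCL8, interleukin 8, measured 20.98, 18.4 and 14.4 CPM in the EGF libraries against 3.696, 3.1001 and 1.83 CPM in the PBS libraries (log2 fold change 2.64 ± 0.22, edgeR adjusted p = 5.60e-10). CSF3, granulocyte colony-stimulating factor, measured 17.1, 12.3 and 13.3 CPM in the EGF libraries against 0.624, 0.9903 and 0.685 CPM in the PBS libraries (log2 fold change 4.19 ± 0.23). INHBA, the activin A subunit, measured 15.7, 14.2 and 11.6 CPM in the EGF libraries against 2.02, 1.31 and 1.81 CPM in the PBS libraries (log2 fold change 3.02 ± 0.20). CXCL14, an epithelial chemokine, fell from 14.9 ± 2.39 to 0.702 ± 0.0486 CPM (log2 fold change -4.41 ± 0.36). CCL28, IL1RN, CXCL16 and IL18 also fell, and CSF2, IL6 and CXCL10 were called from levels under 1 CPM.

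Interferon-stimulated genes fell in 22 of 35 cases and rose in 6 (median -0.66). Promoters are shown for IFIT1 and IFI44L, the members with the strongest falls that hold GAAA, any 2 bases and GAAA on either strand within 120 bases before the RefSeq start (GRCh38.p14). These letters are the core of the interferon-stimulated response element (ISRE) and are in capitals. IFIT1 lies at chr10:89392503-89392622, plus strand, and IFI44L at chr1:78620328-78620447, plus strand.
IFIT1: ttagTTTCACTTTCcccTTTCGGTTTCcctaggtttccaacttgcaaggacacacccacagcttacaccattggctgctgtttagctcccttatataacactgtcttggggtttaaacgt
IFI44L: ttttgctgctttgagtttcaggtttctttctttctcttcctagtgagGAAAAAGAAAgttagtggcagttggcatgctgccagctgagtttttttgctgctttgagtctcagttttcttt

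IFIT1, a sensor of viral RNA, measured 0.914, 1.34 and 1.59 CPM in the EGF libraries against 6.64, 8.01 and 6.77 CPM in the PBS libraries (log2 fold change -2.48 ± 0.21, edgeR adjusted p = 1.59e-10). IFI44L measured 1.605, 1.88 and 1.83 CPM in the EGF libraries against 6.84, 7.26 and 7.95 CPM in the PBS libraries (log2 fold change -2.05 ± 0.15). RSAD2, GBP2 and IFIT2 fell with -3.11, -2.801 and -2.72, and the factors IRF1, IRF9 and STAT2 with -1.22, -1.21 and -1.01. GBP1, OAS3 and USP18 were the strongest of the 6 that rose, by 0.78 to 1.36. In MHC class I presentation 11 of 16 members fell and 1, the regulator NLRC5, rose (0.29), a call lost without EGF replicate 1 or PBS replicate 3 (edgeR adjusted p = 0.088 and 0.076). PSMB9, HLA-E, TAP1 and HLA-F fell with -1.92, -1.39, -1.05 and -0.96, but most genes of this list have several rows for alternate loci and their values are those of the row with the most counts. Complement and acute-phase genes fell in 18 of 25 cases (median -1.58), but 6 of the 25 stayed under 1 CPM in both groups. Of the 19 others, 15 fell and 2 rose, with a median of -1.26. C3 measured 224, 294 and 256 CPM in the EGF libraries against 932, 1168 and 1063 CPM in the PBS libraries (log2 fold change -2.03 ± 0.17). C1S, C1R, SERPINA3 and SAA2 fell with -3.33, -2.93, -3.003 and -2.88, C4A, under 1 CPM in both groups, was called except without PBS replicate 2 (edgeR adjusted p = 0.070) or with its 4 rows merged (0.11), and SERPINA1 and CD59 rose by 0.75 and 0.49.

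TGFB, activin and BMP signalling split, with 11 of 29 higher (37.9%) and 14 lower (48.3%). These shares were near the 33.8% and 37% of all rows. FST, follistatin, which binds activin, measured 8.49, 8.19 and 8.58 CPM in the EGF libraries against 0.325, 0.517 and 0.685 CPM in the PBS libraries (log2 fold change 4.04 ± 0.26). INHBA and the latent TGFB binding proteins LTBP2 and LTBP1 rose by 3.02, 2.39 and 1.86, and BMP6 by 2.07. The BMP targets ID2, SMAD6, ID1 and ID3 fell, ID2 from 56.5 ± 5.47 to 8.16 ± 1.49 CPM (log2 fold change -2.79 ± 0.17), and the ligands BMP7 and BMP2 with -3.98 and -1.42. The receptors TGFBR2 and TGFBR1 rose by 0.802 and 0.45, and the coreceptor TGFBR3 fell with -2.23.

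Regulators of apoptosis in the BCL2 family split by member. BMF, a BH3-only activator of cell death, measured 3.57, 5.43 and 2.79 CPM in the EGF libraries against 109, 118 and 122 CPM in the PBS libraries (log2 fold change -4.87 ± 0.24, edgeR adjusted p = 3.14e-13). The BH3-only genes HRK, BCL2L11 (BIM), BBC3 (PUMA) and BIK also fell, at -0.84 for BIK to -2.56 for HRK, while PMAIP1 (NOXA) rose by 1.42. BCL2 measured 4.24, 4.93 and 4.69 CPM in the EGF libraries against 0.225, 0.172 and 0.2201 CPM in the PBS libraries (log2 fold change 4.48 ± 0.28). The antiapoptotic BCL2A1, MCL1 and BCL2L1 rose by 1.93, 0.68 and 0.3997, and BCL2L2 fell with -0.42. In all, 8 of 16 were higher and 7 lower, and the effectors BAX and BAK1 rose by 0.26 and 0.77. p53 target genes fell in 15 of 23 cases (median -0.52), led by GDF15 at -2.36 and TP53INP1 at -2.105, and PLK3, AEN, PLK2, FAS and BAX rose by 0.26 to 1.27.

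**Figure D4:**
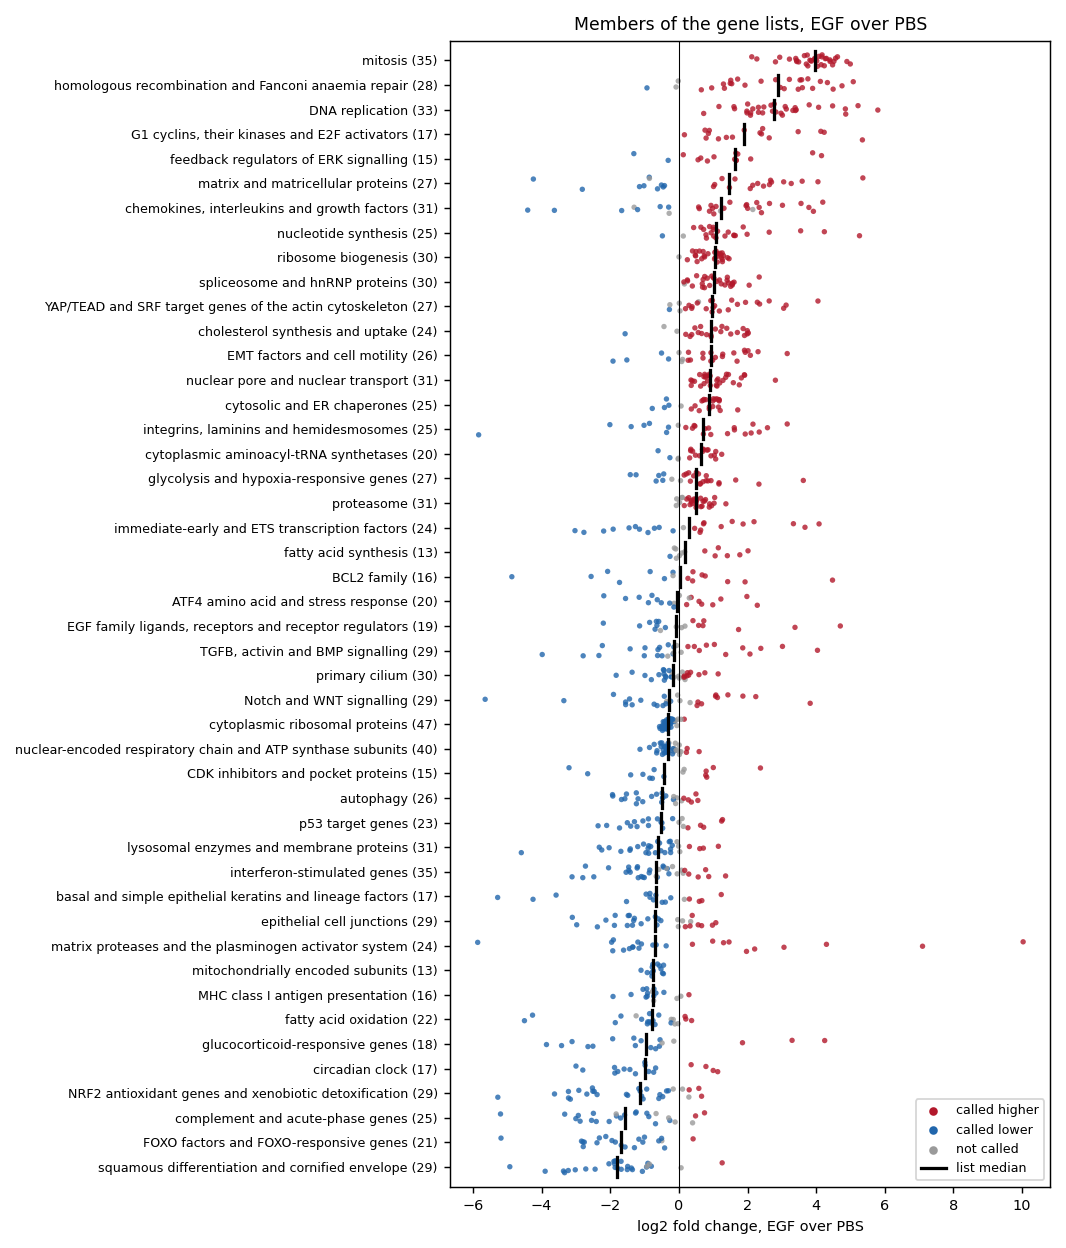
log2 fold change of EGF over PBS (horizontal) for each tested member of 46 gene lists, ordered by the list median (black bar). The number of members tested is in parentheses, red and blue points were called higher and lower and grey points were not called, and the point at 10.0 is MMP1, whose fitted value is no measure of size because PBS was at 0. Mitosis has the highest median, 3.96, and squamous differentiation the lowest, -1.79.

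Promoters of all tested genes were searched for the motifs printed above and for the sterol, forkhead, ETS and AP-1 letters named below. The search covered 250 bases before to 50 bases after the RefSeq start, for 11408 of 14872 tested symbols that had a promoter sequence. The E2F letters were in 3.55% of all promoters and in 14 of 30 replication promoters (46.7%). CCAAT and CHR together were in 4.84% of all and in 19 of 30 mitosis promoters (63.3%). The CLEAR letters were in 1.78% of all and in 5 of 22 lysosome promoters (22.7%), and also in 2 of 13 BCL2 family promoters (15.4%). The ISRE core letters were in 2.95% of all and in 17 of 25 interferon list promoters (68%), and also in 7 of 13 MHC class I promoters (53.85%). The sterol element letters TCACNCCAC were in 1 of 18 cholesterol promoters (5.56%) against 1.12% of all, and CCAAT alone was in 15 of those 18 (83.3%) against 36.2%. CCAAT was not particular to that list, with 80% of mitosis and 66.7% of chaperone promoters. GTAAACA, a forkhead core, was in 2 of 19 promoters of the FOXO list (10.5%) against 2.39% of all. It was as frequent in the squamous and p53 lists (10.5% each) and more so in the YAP and SRF list (14.3%). The AP-1 site TGACTCA was in 7 of 19 squamous promoters (36.8%) against 3.47% of all.

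Read from the motif side, the shifts over the genome were small. Of the 11408 genes with a promoter, 37.5% were called higher and 38.5% lower, with a median of -0.03. Among the 405 with the E2F letters 50.1% were higher and the median was 0.21, and among the 552 with both CCAAT and CHR 49.8% were higher and the median was 0.19. Among the 203 with the CLEAR letters 50.2% were lower and the median was -0.18. The 930 genes with the ETS letters CCGGAAGT were higher in 46.6% of cases, with a median of 0.11. Genes with the ISRE core, GTAAACA or the AP-1 site TGACTCA were lower in 42.3%, 44.3% and 43.2% of cases. A match is a description of the letters in this window, not a bound site.

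**Figure D5:**
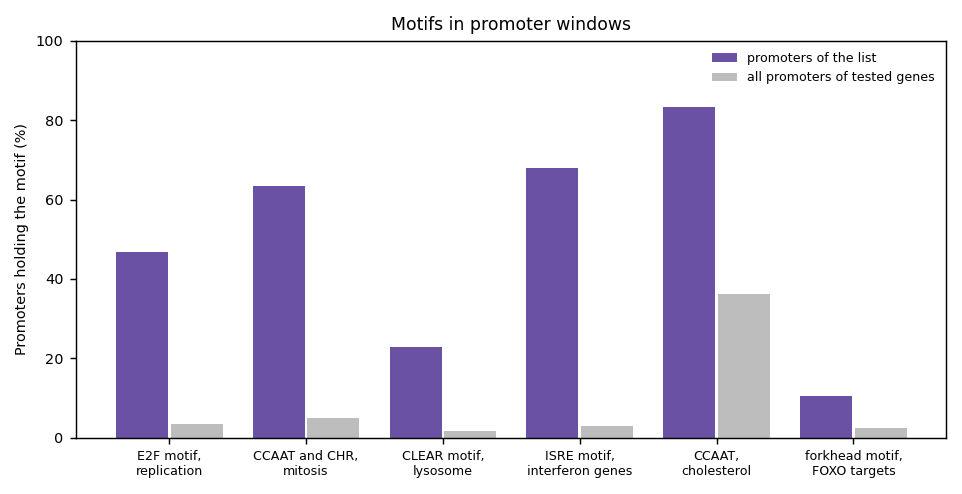
Percent of promoter windows (vertical, from 0) that hold a motif, for the promoters of a list (purple) and of all 11408 tested genes with a promoter (grey). In each of the 6 pairs drawn the list promoters hold the motif more often than all promoters do, from 10.5% against 2.39% for the forkhead core in the FOXO list to 83.3% against 36.2% for CCAAT in the cholesterol list. The forkhead core was no less frequent in the squamous, p53 and YAP and SRF lists, which are not drawn. Not drawn either are CCAAT in the mitosis list (80% of promoters) and the ISRE core in the MHC class I list (53.85%).

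The response to EGF was set against that to each of the other single ligands, with EGF libraries compared directly with OSM or TGFB libraries in the same edgeR fit. These contrasts share the EGF libraries. Against OSM, 4590 rows were higher with EGF (27.6%) and 4450 lower (26.8%), and against TGFB, 5203 were higher (31.3%) and 6127 lower (36.9%). The near-even split against OSM depended on the libraries used. Of the calls, 50.8% were higher with EGF, and 57.15 to 58.14% were when any OSM library was left out. Mitosis genes were higher with EGF than with OSM in 28 of 35 cases, with a median difference of 0.65, and than with TGFB in all 35, with a median of 4.47. All 33 replication genes were higher with EGF than with either ligand, by medians of 0.92 and 2.72. PLK1 was at 155 ± 13.9 CPM with EGF, 89.8 ± 12.8 with OSM and 5.499 ± 0.256 after TGFB (SD, n = 3).

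Squamous genes separated EGF from both other ligands in opposite directions. Of this list, 16 of 29 were higher with EGF than with OSM (median difference 1.68), while 24 were lower with EGF than with TGFB (median -1.41). KRT10 was at 212 ± 47.3 CPM with EGF, 65.97 ± 12.99 with OSM and 881 ± 323 after TGFB. In the same order KRT13, a mucosal keratin, was at 27.1 ± 2.28, 1.79 ± 0.735 and 20.8 ± 3.04. KRT13 thus followed the list against OSM but not against TGFB, where its mean was not lower with EGF. Glycolytic and hypoxia-responsive genes were lower with EGF than with OSM in 23 of 27 cases (median -0.65) and higher than with TGFB in 17 (median 0.51). Complement and acute-phase genes were lower with EGF than with OSM in 22 of 25 (median -3.01), and C1S was at 1.02 ± 0.1397 CPM with EGF and 118 ± 22.8 with OSM (edgeR adjusted p = 2.57e-17). Ribosomal protein genes were lower with EGF than with OSM in all 47 (median -0.60).

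DUSP6 was 0.53 higher on the log2 scale with EGF than with OSM and 3.21 higher than with TGFB, and CCND1 2.49 and 2.17 higher. FOXO-responsive genes were lower with EGF than with OSM in 16 of 21 and than with TGFB in 20, and FBXO32 was at 97.2 ± 43.9 CPM with OSM and 219.9 ± 9.86 with TGFB. Matrix genes were more often lower than higher with EGF against TGFB, 15 against 7 of 27: LOX differed by -5.07 and the transglutaminase TGM2 by -3.33. Sterol genes were higher with EGF than with OSM in 20 of 24 and than with TGFB in 21, by medians of 0.59 and 1.01.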

How the data were processed

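RNA was measured in 27 libraries made with a stranded mRNA kit, per the labels. Per the submitters' processing notes, Trim Galore 0.4.3, cutadapt 1.10, FastQC 0.11.5 and kallisto 0.46.2 were used with GRCh38.p5. The authors deposited estimated counts per gene as whole numbers, and how transcripts were summed is not given in the sources used here. All 27 columns were matched to samples by name, and 0 were left without one. edgeR 4.0.16 in R 4.3.3 was run on all libraries (filterByExpr, TMM, glmQLFit robust, glmQLFTest, 18 residual degrees of freedom), and DESeq2 1.42.0 was an alternative. The fit was tested on simulated data. Replicates differed by more than sampling noise.

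Genes in the text are the 15 strongest rises and falls with at least 10 CPM, no overlap and a call, the 10 largest gains and losses of CPM, and from each list the 4 strongest called members and those called against its majority, with others by role. The members and lists were chosen with earlier results of these data known. Lists use the row of a symbol with the most counts, and have no set test. The interferon promoters were added after values were seen. Gene spans are from GENCODE 44. Some genes that this rule names are not reported here.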

Additional observations from a re-analysis of the deposited data

How the results depend on the processing

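No called gene named in the text reversed its direction under any alternative, against PBS or, for the genes set against OSM or TGFB, in those contrasts. Apart from the 2-fold limit, which was applied against PBS only, the counts of called rows and of list members stayed within 1.5 times under every scaling, filter, tool, row treatment and left-out library tried. The summing of identical rows was added after seeing the data. The calls lost or gained by single named genes under other settings were among weak changes or low counts.

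With a 2-fold limit added, the called rows numbered 1913 higher and 2573 lower. The members called in the larger direction then numbered 17 for ribosome biogenesis, 0 for ribosomal proteins, 4 for tRNA synthetases, 9 for chaperones, 16 for splicing, 3 for the proteasome and 15 for the nuclear pore. They were 11 for cholesterol, 5 for fatty acid oxidation, 5 for glycolysis, 1 each for the nuclear and mitochondrial respiratory lists, 9 each for lysosome and autophagy, and 3 for ATF4. Signalling lists gave 7 for early factors, 2 for the EGF family, 4 for CDK inhibitors, 6 for TGFB and BMP, 8 for Notch and WNT, 3 for the BCL2 family, 8 for p53 and 8 for the clock. Structural lists gave 4 for keratins and lineage factors, 9 for integrins and laminins, 11 for motility, 12 for YAP and SRF, 2 for the primary cilium, 3 for antigen presentation, 4 for mammary and 1 for fibroblast markers. The other 18 lists stayed within 1.5 times. With rows of a symbol merged, the gain in the share of counts of glycolytic and hypoxia-responsive genes was 0.42 percentage points against 0.47.

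Upper-quartile scaling lowered the median of all rows from -0.07 to -0.15 and the share of higher calls from 47.7% to 42.4%. It moved 24 of the 49 list medians against PBS by more than the spread between libraries. Leaving out a library did so in 21 further cases over all lists and libraries, and the other settings in 9. With the replicate block, 5692 rows were higher and 6255 lower. A fit of only the EGF and PBS libraries tested 15408 rows. It called 5684 higher and 5578 lower, so 50.5% of its calls were higher. The excess of lower calls over higher calls was thus absent in that fit. Same-numbered EGF and PBS libraries deviated together by r = 0.088, 0.025 and -0.0073 over genes, so the numbers were not taken to pair them. At 1 CPM an EGF or PBS library holds 40.0 to 50.1 counts after scaling, a counting error of 14.1 to 15.8%, so genes near or below that level are limited by few counts.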

Other observations

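Some programmes outside those described above also moved. Of the 17 circadian clock genes, 13 fell and 4 rose (median -0.99). DBP, an output factor of the clock, measured 0.869, 1.04 and 1.295 CPM in the EGF libraries against 8.22, 9.09 and 8.32 CPM in the PBS libraries (log2 fold change -2.999 ± 0.26). HLF, CIART and TEF fell with -2.8005, -1.88 and -1.87, and CRY1, BMAL1, BHLHE40 and CLOCK rose by 0.36 to 1.13. Only 1 time point was sampled after the ligands, so phase and level cannot be told apart. Glucocorticoid-responsive genes fell in 13 of 18 cases. TSC22D3 (GILZ) measured 25.9, 28.1 and 25.1 CPM in the EGF libraries against 379, 396 and 374 CPM in the PBS libraries (log2 fold change -3.86 ± 0.15), GLUL, glutamine synthetase, fell with -3.11, and HSD11B2, which inactivates cortisol, with -3.42. ANGPTL4, MT2A and MT1E rose by 4.25, 3.298 and 1.85.

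Nuclear pore and transport genes rose in all 31 cases (median 0.92), led by the importin KPNA2 at 2.81, splicing genes in 29 of 30 (median 1.01), led by SRSF7 at 2.34 and SRSF2 at 2.05, and proteasome subunits in 26 of 31 (median 0.50), led by PSMD2 at 1.37. No member of these 3 lists was called lower. Notch and WNT genes split, with 10 of 29 higher (34.5%) and 14 lower (48.3%). As a list they stayed near the 33.8% and 37% of all rows. WNT4 fell with -5.65, the WNT feedback gene AXIN2 with -3.35 and NOTCH1 with -1.55, while WNT7A rose from 0.388 ± 0.145 to 5.51 ± 0.443 CPM (log2 fold change 3.83 ± 0.27) and JAG1, a Notch ligand, by 1.43. Primary cilium genes stayed near the background of all rows, with 9 of 30 higher and 14 lower. BBS1, of the BBSome, fell with -1.83.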
